A study of Mus musculus with 7 samples.

Results

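Enzymes that cut the extracellular matrix, and the proteins that restrain them, were compared between 2 groups of mouse oligodendroglia. The members were all rows of the count tables named as matrix metalloproteinases (Mmp), ADAMTS proteases (Adamts), ADAMTS-like proteins (Adamtsl) or tissue inhibitors of metalloproteinases (Timp), 51 of 49315 genes. They comprised 23 Mmp, 19 Adamts, 5 Adamtsl and 4 Timp genes. The cells came from mouse brain, and the series' title names early postnatal NG2 glia, which divide and give rise to oligodendrocytes. The 3 control libraries have the genotype Sox9-wt, and the 4 Sox9-tg libraries overexpress the transcription factor Sox9. The labels used here give no strain, age in days, sex or transgene promoter, and do not say how the cells were isolated or cultured. The titles call the libraries biological replicates, but nothing says whether they came from separate animals or cultures. The p-values therefore rest on a spread among libraries that may in part be technical. Sox9-tg libraries 3 and 4 were far more alike than other pairs within a group. A chi-square statistic of their count differences was 5.285 per gene, against 43.95 to 88.13 for the other pairs. Whether libraries 3 and 4 share a source was not tested.

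Matrix metalloproteinases are zinc enzymes made as inactive precursors, and some are anchored in the cell membrane while others are secreted. ADAMTS proteases are secreted, bind the matrix and, according to the member, cut the lecticans (aggrecan, brevican, neurocan and versican), the ends of procollagens or other matrix proteins. ADAMTS-like proteins share their binding domains but lack the protease. TIMPs bind the active site of these enzymes, and in the brain this system remodels the proteoglycan-rich matrix around glia and neurons.

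Libraries held between 15768472 and 30507326 gene counts. Sox9 itself stood at 239, 353 and 293 CPM (a library's counts divided by its total on a common scale, with edgeR's TMM factors) in control libraries 1 to 3 and at 2207, 2741, 3597 and 3115 CPM in Sox9-tg libraries 1 to 4, so all 7 matched their labels. Of 10 markers of NG2 glia, 10 passed the test as higher, beside 7.69% of all genes tested. Their summed level was 2407 to 2795 CPM in controls and 7621 to 11946 CPM with the transgene. Of 10 astrocyte markers, 4 passed as lower and 6 did not pass. For 10 neuron markers these counts were 5 and 5, beside 5.86% of all genes called lower. Markers of astrocytes summed to 2419 to 4382 and 1636 to 2374 CPM and those of neurons to 1531 to 2661 and 563 to 1359 CPM in control and Sox9-tg libraries, and no marker of these lists was at 0 in all libraries. In bulk RNA, fewer cells of a type and less RNA per cell cannot be told apart, and the part of these shifts in the changes below was not tested. Control library 2 and Sox9-tg library 2 stood apart in their groups: microglial markers summed to 690 and 278 CPM there, against 89.98 to 200.5 and 40.4 to 91.5 CPM in the other control and Sox9-tg libraries. Endothelial markers summed to 165 and 83.7 CPM there, against 10.3 to 12.96 and 19.3 to 26.8 CPM.

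Of the 51 members, 37 had enough counts to be tested. Of these, 10 rose and 5 fell in Sox9-tg libraries at an adjusted p under 0.05 in edgeR's quasi-likelihood test, and 22 did not pass. Over all 16616 genes tested, 7.69% were called higher and 5.86% lower, 13.5% in all, and 40.5% of the tested members were called. The groups of libraries did not overlap for 13 members that were higher and 4 that were lower in Sox9-tg, 17 of 37. Over all genes tested this held for 13.1% higher and 11.5% lower, 24.5% in all. In the lower direction the share of the members was therefore close to that of all genes. The median log2 difference (Sox9-tg minus control, here the fitted log2 fold change) was 0.41 over the tested members and -0.01 over all genes. With the replicate number of the labels as a block, 13 members rose and 2 fell, 35.1% and 5.41% of those tested. Over all genes, 9.63% rose and 9.08% fell with the block, so the share of falling members was below that of all genes. Sox9-tg library 4 has no control of its number, so the blocked group difference rests on the libraries numbered 1 to 3. Without control library 2 and Sox9-tg library 2 together, 12 rose and 1 fell, 33.3% and 2.78%, beside 7.06% and 5.03% of all genes. Of the members called with all libraries, 9 of the 10 higher and 1 of the 5 lower were among them. Leaving out 1 library at a time left 7 to 12 members higher and 1 to 4 lower, 18.4% to 32.4% and 2.63% to 10.8%. Over all genes these shares were 3.34% to 10.9% and 2.26% to 8.46%. The fewest higher, 7, were found without control replicate 3. A single lower member remained without control replicates 2 or 3 or Sox9-tg replicates 3 or 4, and 2 remained without control replicate 1 or Sox9-tg replicate 2.

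**Figure D1:**
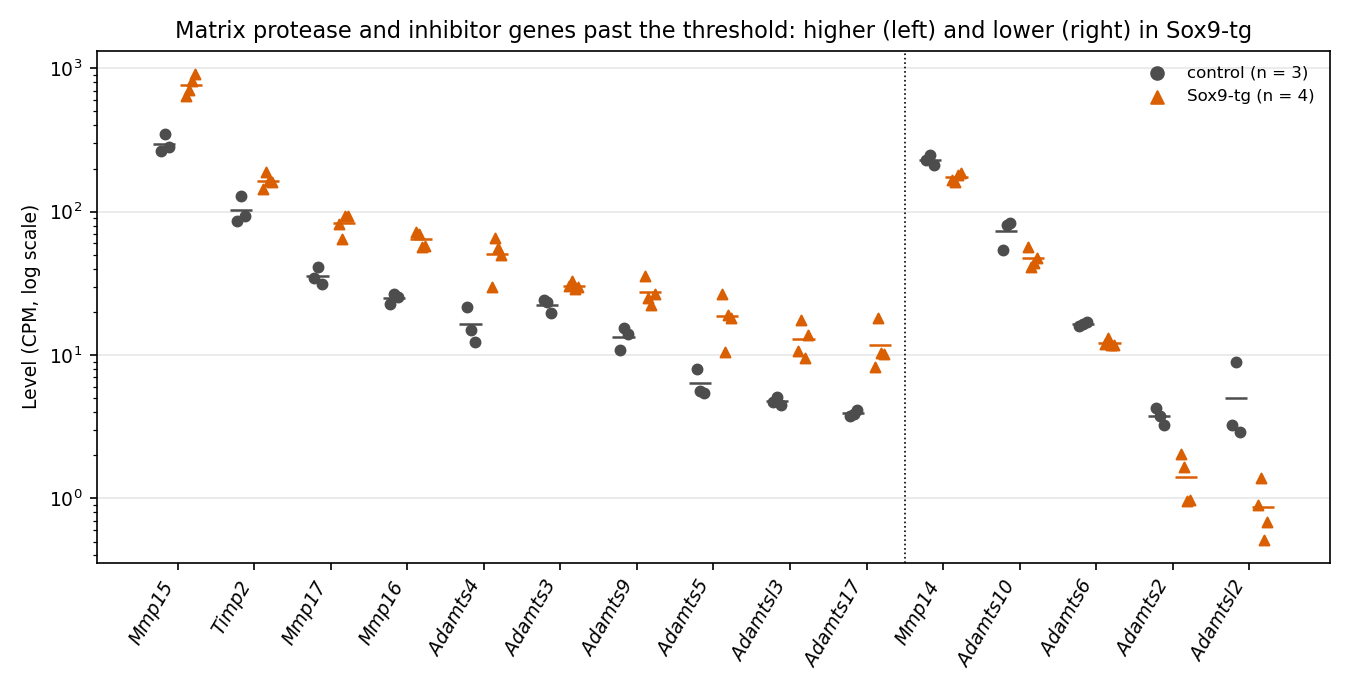
Level of the 15 called members in each library, in CPM on a log scale. Circles are control libraries (n = 3), triangles Sox9-tg libraries (n = 4) and short lines group means; the 10 members left of the dotted line were higher in Sox9-tg libraries and the 5 to its right lower, and Adamts10 is the called member whose groups overlap.

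Membrane-type metalloproteinases, which stay anchored at the cell surface, went in both directions. Of 6 such genes, 5 were tested: Mmp15, Mmp16 and Mmp17 rose, Mmp14 fell and Mmp24 did not pass. Of all genes tested, 7.69% were called higher and 5.86% lower. Mmp15 (ENSMUSG00000031790, chromosome 8, 95352268 to 95375080, plus strand, GRCm38), which encodes an enzyme with a transmembrane anchor, stood at 266, 347 and 281 CPM in controls and at 638, 705, 819.7 and 912 CPM with the transgene. Every Sox9-tg library held more than any control library, and the rise was 2.58-fold (log2 difference 1.37 with an SE of 0.175, adjusted p = 0.00173). Mmp16 (ENSMUSG00000028226, chromosome 4, 17852893 to 18119145, plus strand, GRCm38), whose product is anchored in the same way, was measured at 22.8, 26.7 and 25.5 CPM in controls and 72.7, 70.03, 56.3 and 57.5 CPM with the transgene (log2 difference 1.36 with an SE of 0.135, adjusted p = 0.000576). Mmp17 (ENSMUSG00000029436, chromosome 5, 129584169 to 129611099, plus strand, GRCm38), which encodes an enzyme held by a lipid anchor, rose from 34.7, 40.95 and 31.5 to 81.96, 64.2, 93.5 and 92.8 CPM (log2 difference 1.22 with an SE of 0.163, adjusted p = 0.00206). Neither gene's groups overlapped. All 3 rises passed the threshold in each of the 16 alternative settings.

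Mmp14 (ENSMUSG00000000957, chromosome 14, 54431612 to 54445364, plus strand, GRCm38), the best known of these enzymes, which cuts fibrillar collagens and activates the precursor of the secreted gelatinase Mmp2, went the other way. Its level was 229, 248 and 213 CPM in controls and 165, 161, 180.3 and 185 CPM with the transgene, a 1.33-fold fall with no overlap between groups (log2 difference -0.41 with an SE of 0.112, adjusted p = 0.0444). This was a small change that passed narrowly: with the replicate block its adjusted p was 0.0505. It was 0.152, 0.154 and 0.130 without control replicates 1 to 3, and 0.110, 0.122 and 0.109 without Sox9-tg replicates 2 to 4. Mmp24, which is known as a brain-enriched member, was measured at 67.1, 53.9 and 54.4 CPM and 62.8, 44.4, 61.6 and 58.5 CPM, with overlapping groups. Its log2 fold change of -0.04 had a 95% interval from -0.38 to 0.299, and 13.6% of its exonic bases are shared with a gene on the opposite strand. The lipid-anchored Mmp25 was not tested. It reached 1.66 CPM in control library 2 and stayed between 0.0324 and 0.599 CPM in the other libraries.

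Expressed per kilobase of exonic sequence, so that genes can be compared, Mmp15 was the most abundant of the 51 members in both groups. Its mean level was 55.2 ± 7.96 and 142 ± 22.5, that of Mmp14 38.5 ± 2.93 and 29.04 ± 1.93, that of Mmp17 5.398 ± 0.724 and 12.6 ± 2.06 and that of Mmp16 2.89 ± 0.228 and 7.399 ± 0.971 CPM per kb in control and Sox9-tg libraries. The share of Mmp15 in the summed Mmp level per kb was 42.04% to 47.75% in control and 62.99% to 70.4% in Sox9-tg libraries. That of Mmp14 was 30.9% to 32.7% in control and 12.95% to 14.8% in Sox9-tg libraries. The ratio of Mmp15 to Mmp14 per kb was 1.29, 1.55 and 1.46 in control libraries 1 to 3 and 4.26, 4.82, 5.02 and 5.44 in Sox9-tg libraries 1 to 4. Membrane-type enzymes together made up 93.7% to 94.8% of the Mmp level per kb in control libraries and 95.7% to 97.2% in Sox9-tg libraries. The plot of Mmp composition shows the shares of single libraries.

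**Figure D2:**
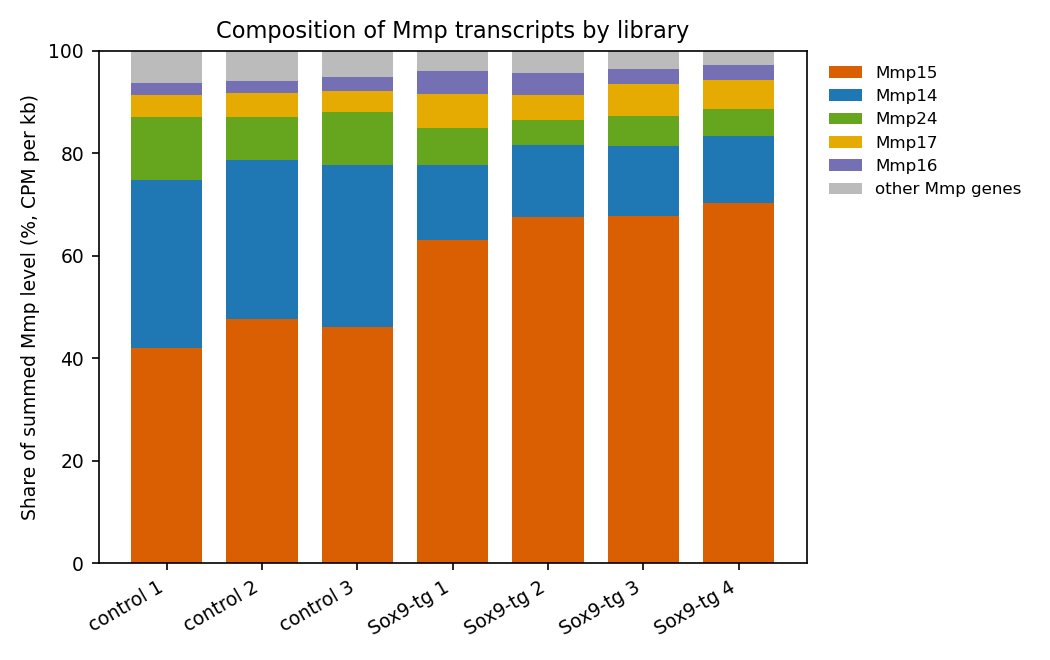
Share of each Mmp gene in the summed Mmp level of a library, in percent of CPM per kb of exonic sequence. Each bar is 1 library; the Mmp15 segment takes 42.04% to 47.75% of the 3 control bars and 62.99% to 70.4% of the 4 Sox9-tg bars, and the Mmp14 segment takes 30.9% to 32.7% and 12.95% to 14.8%.

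The sequence just before the transcription start was read from RefSeq promoters (GRCm38.p6), which matched 36 of the 51 members, among them 9 of the 15 called (not Adamts4, Adamts5, Adamts6, Adamts10, Mmp16 and Mmp17). The 250 bases upstream of the start are shown for Mmp15 and Mmp14, which went in opposite directions, for Adamtsl2, which fell most, and for Mmp13, as an example of the scarce or undetected Mmp genes of chromosome 9. Capitals mark GGGCGG, the core of a GC box, or its reverse complement, and TGACTCA, the site of AP-1 factors.
Mmp15 (chr8:95352046-95352295, plus strand): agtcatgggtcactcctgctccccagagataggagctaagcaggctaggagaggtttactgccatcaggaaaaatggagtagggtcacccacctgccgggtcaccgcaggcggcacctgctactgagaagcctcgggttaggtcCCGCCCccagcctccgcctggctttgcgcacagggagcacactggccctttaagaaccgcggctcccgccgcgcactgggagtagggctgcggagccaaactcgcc
Mmp14 (chr14:54431348-54431597, plus strand): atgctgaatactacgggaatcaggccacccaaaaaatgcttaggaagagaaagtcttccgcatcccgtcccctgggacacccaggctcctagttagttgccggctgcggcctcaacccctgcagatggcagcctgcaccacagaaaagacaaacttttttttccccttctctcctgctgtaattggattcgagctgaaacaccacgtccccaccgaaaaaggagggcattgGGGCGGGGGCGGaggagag
Adamtsl2 (chr2:27079129-27079378, plus strand): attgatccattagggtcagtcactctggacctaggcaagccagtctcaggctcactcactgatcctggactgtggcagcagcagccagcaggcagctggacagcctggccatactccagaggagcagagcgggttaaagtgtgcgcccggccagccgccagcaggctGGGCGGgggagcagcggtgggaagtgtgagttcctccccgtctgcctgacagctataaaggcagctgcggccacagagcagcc
Mmp13 (chr9:7272264-7272513, plus strand): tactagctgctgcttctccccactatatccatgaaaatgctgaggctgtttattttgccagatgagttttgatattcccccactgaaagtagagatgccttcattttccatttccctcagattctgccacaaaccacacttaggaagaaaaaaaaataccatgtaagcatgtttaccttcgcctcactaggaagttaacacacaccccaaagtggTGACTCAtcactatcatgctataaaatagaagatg
The SOX core ACAAT, searched on both strands, was found in 0 of the 9 called members with a promoter, in 2 of the 13 that did not pass (Mmp23 and Timp1), in 7 of 14 not tested and in 27.7% of 32851 promoters of the same length. GGGCGG or its complement was present in 8 of the 9 called members, in 18 of the 22 tested members and in 32.7% of all promoters. TGACTCA or its complement was present in 0 of 22 tested members and in 6 of the 14 that were not tested, all of them Mmp genes of chromosome 9, and in 4.46% of all promoters. For each member the start nearest the annotated gene start was used, whereas the share over all promoters counts every start, so these shares are not strictly alike. The starts of Adamts20 and Mmp11, which did not pass, lay 61068 and 3994 bases from the annotated one. None of the 3 motifs contains another. The base composition differed as well: the median GC content of these windows was 64.8% in tested members, 41.2% in members not tested and 52.4% over all promoters.

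Outside the membrane-type group, which by convention leaves out Mmp23, an enzyme made with a membrane anchor of another kind, 6 Mmp genes were tested. Of these 0 passed in edgeR's test, beside 13.5% of all genes, against 1 in DESeq2, 0 in limma-voom and 1 at an unadjusted p under 0.05. The gelatinase gene Mmp2, which encodes a collagen IV and gelatin protease, stood at 6.16, 7.41 and 6.404 CPM in controls and 8.24, 14.02, 12.9 and 9.76 CPM with the transgene. All Sox9-tg libraries lay above all control libraries, yet the difference did not pass (log2 difference 0.75 with an SE of 0.224, adjusted p = 0.0585). It passed with the replicate block (adjusted p = 0.0231), without Sox9-tg replicate 1 (0.0209) and with DESeq2 (0.0140). The other gelatinase gene, Mmp9, which leukocytes and microglia are known to make, was found at 0.92998, 3.84 and 0.226 CPM and 0.473, 0.798, 0.129 and 0.439 CPM. Its highest value was in control library 2, the library with the most microglial and endothelial marker RNA, and its groups overlapped (log2 difference -1.83 with an SE of 0.8599, adjusted p = 0.213). Mmp28 was also highest there, at 0.697, 2.96 and 0.712 CPM in controls and 0.578, 1.15, 0.515 and 0.976 CPM with the transgene (log2 difference -0.86 with an SE of 0.5901, adjusted p = 0.397). Mmp11, Mmp19 and Mmp23 had log2 fold changes of -0.197, 0.44 and 0.66 with adjusted p of 0.612, 0.404 and 0.395. The part of other cell types in the values of Mmp9 and Mmp28 was not tested.

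No count was found in any library for 7 Mmp genes: Mmp1a, Mmp1b, Mmp3, Mmp7, Mmp10, Mmp20 and Mmp27. They lie with Mmp8, Mmp12 and Mmp13 in a cluster of 10 Mmp genes on chromosome 9 between 7272514 and 7699585, none of which was tested. Mmp8, Mmp12 and Mmp13 had at most 4 counts in a library. A count of 0 allows a level of up to 0.09703 to 0.193 CPM (3 counts of a library's total), which covers counting error only. The cluster holds genes of collagenases, stromelysins and the macrophage elastase, which in other tissues respond to inflammation and injury. Of the other members, Mmp21, Mmp25, Adamts13 and Adamtsl5 were too scarce to be tested, and the highest of all 14 in a library was Mmp25 at 1.66 CPM.

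ADAMTS proteases known to cut lecticans moved upward where they passed. Of 7 such genes, all tested, Adamts4, Adamts5 and Adamts9 rose, none fell, and Adamts1, Adamts8, Adamts15 and Adamts20 did not pass. Over all genes tested, 7.69% were called higher and 5.86% lower, so the absence of a fall among 7 genes says little. Adamts4 (ENSMUSG00000006403, chromosome 1, 171250421 to 171260637, plus strand, GRCm38), which encodes an aggrecanase that is a known product of oligodendrocytes, rose 3.099-fold. It stood at 21.7, 15.02 and 12.4 CPM in controls and 29.9, 65.9, 56.2 and 49.8 CPM with the transgene (log2 difference 1.63 with an SE of 0.288, adjusted p = 0.00719). Sox9-tg library 1 was lowest in its group but above every control library, and the gene passed in each alternative setting. Sox9-tg library 1 also had the lowest summed level of myelinating oligodendrocyte markers of its group, 795 CPM against 2555 to 4878 CPM. Control libraries stood at 145 to 289.99 CPM, and there the order differed. Control library 1 had the lowest sum, 145 CPM, but the highest Adamts4 level of the controls, 21.7 CPM. Whether Adamts4 followed these markers was not tested.

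Adamts5 (ENSMUSG00000022894, chromosome 16, 85856173 to 85901828, minus strand, GRCm38), which encodes the other main aggrecanase, was measured at 7.96, 5.62 and 5.47 CPM and 26.8, 10.5, 18.9 and 18.2 CPM (log2 difference 1.56 with an SE of 0.308, adjusted p = 0.0120). Here Sox9-tg library 1 was the highest and library 2 the lowest, whereas library 2 was the highest for Adamts4. The groups did not overlap. Without control replicate 3 the adjusted p was 0.0666. Adamts9 (ENSMUSG00000030022, chromosome 6, 92772699 to 92943492, minus strand, GRCm38), which encodes a versican-cutting enzyme, rose 2.04-fold, from 10.8, 15.5 and 14.1 to 35.9, 24.8, 22.5 and 26.6 CPM (log2 difference 1.03 with an SE of 0.198, adjusted p = 0.0106). Its groups did not overlap, it passed in each alternative setting, and some of its exonic bases are shared with genes on the opposite strand.

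Adamts1, a versican-cutting protease, lies beside Adamts5 on chromosome 16 and varied widely within each group. It was found at 6.74, 48.1 and 41.1 CPM in controls and 24.4, 149.9, 57.3 and 63.1 CPM with the transgene, and the groups overlapped (log2 difference 1.195 with an SE of 0.698, adjusted p = 0.320). Compared between libraries of the same number, Sox9-tg exceeded control 3.62-fold, 3.12-fold and 1.39-fold for numbers 1 to 3. With the replicate block Adamts1 passed (log2 fold change 1.296, adjusted p = 0.00587). Adamts20, also a versican-cutting protease, had 7.61, 14.9 and 7.83 CPM and 16.5, 15.96, 12.7 and 14.7 CPM (log2 difference 0.56 with an SE of 0.252, adjusted p = 0.191). Control library 2 alone reached the range of the Sox9-tg libraries, and without it the gene passed (log2 fold change 0.96, adjusted p = 0.0104). Adamts8 and the scarce Adamts15 had log2 fold changes of 0.39 and -0.24 with 95% intervals from -0.57 to 1.34 and from -1.68 to 1.21.

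Substrates of these proteases and their partners were counted as well. Of 8 lectican and link protein genes, 7 were tested, 3 rose and none fell, beside the 13.5% called over all genes tested. The median log2 difference of the tested genes was 0.56. The neurocan gene Ncan, with means of 1994 and 2159 CPM in control and Sox9-tg libraries, did not pass (adjusted p = 0.678). The brevican gene Bcan, at 1052 and 1553 CPM, did not pass either (adjusted p = 0.193), nor did Hapln3 and Hapln4. The aggrecan gene Acan rose from 4.24 ± 1.64 to 120.97 ± 57.1 CPM (SD over 3 control and 4 Sox9-tg libraries) and the versican gene Vcan from 280.1 ± 81.0 to 657 ± 191 CPM, and Vcan is also one of the NG2 glia markers. The link protein gene Hapln1 rose as well, by a log2 fold change of 2.75 that was 2.07 without Sox9-tg replicate 2. Without control replicate 3, Vcan and Hapln1 had adjusted p = 0.0776 and 0.0770, and without control replicate 1 Hapln1 had 0.0599.

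The 3 procollagen N-proteinase genes, whose products remove the amino-terminal ends of fibrillar procollagens, split. Adamts3 (ENSMUSG00000043635, chromosome 5, 89677087 to 89883334, minus strand, GRCm38), which also acts on a lymphatic growth factor, stood at 24.2, 23.5 and 19.6 CPM in controls and 30.2, 32.6, 28.7 and 29.9 CPM with the transgene (log2 difference 0.44 with an SE of 0.118, adjusted p = 0.0404). Groups did not overlap, but the change was small. The call was lost with upper-quartile factors (0.0632), with total counts (0.0630) and without a filter on low counts (0.0736). It was also lost without control replicates 1 to 3 (0.0656, 0.0636 and 0.180) and Sox9-tg replicates 2 to 4 (0.0797, 0.0829 and 0.101). Adamts2 (ENSMUSG00000036545, chromosome 11, 50602084 to 50807573, plus strand, GRCm38) fell 2.64-fold, from 4.24, 3.74 and 3.23 to 2.05, 1.65, 0.966 and 0.976 CPM (log2 difference -1.399 with an SE of 0.347, adjusted p = 0.0294), with no overlap. Its adjusted p was 0.0996, 0.0574 and 0.0790 without control replicates 1 to 3 and 0.0836 and 0.0850 without Sox9-tg replicates 3 and 4. The scarce Adamts14 had 0.232, 0.683 and 0.226 and 1.31, 0.599, 0.966 and 0.732 CPM (log2 difference 1.198 with an SE of 0.524, adjusted p = 0.182).

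Among the remaining ADAMTS genes, Adamts17 showed the clearest change. Adamts17 (ENSMUSG00000058145, chromosome 7, 66839735 to 67153171, plus strand, GRCm38), mutated in a human short-stature and lens disorder linked to fibrillin, rose from 3.78, 3.87 and 4.11 to 8.296, 18.2, 10.3 and 10.1 CPM (log2 difference 1.58 with an SE of 0.288, adjusted p = 0.00833). Control libraries were tightly grouped and Sox9-tg library 2 was the highest, and the gene passed in each alternative setting. Adamts10 (ENSMUSG00000024299, chromosome 17, 33524204 to 33553782, plus strand, GRCm38), linked to a similar disorder, fell. It was measured at 54.2, 81.3 and 83.1 CPM and 56.6, 41.4, 43.99 and 47.4 CPM (log2 difference -0.62 with an SE of 0.174, adjusted p = 0.0466), and control library 1 lay within the range of the Sox9-tg libraries. Adamts10 had adjusted p = 0.0661 with the replicate block, 0.0504 with median-of-ratios factors and 0.0561 with limma-voom. Leaving out control replicates 2 or 3 gave 0.126 and 0.200, and leaving out Sox9-tg replicates 2, 3 or 4 gave 0.0958, 0.135 and 0.119.

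Adamts6 (ENSMUSG00000046169, chromosome 13, 104287835 to 104496695, plus strand, GRCm38), the nearest relative of Adamts10 in sequence, fell slightly, from 15.98, 16.5 and 17.1 to 11.97, 13.2, 11.7 and 11.7 CPM (log2 difference -0.44 with an SE of 0.125, adjusted p = 0.0479). Its libraries were tightly grouped and did not overlap. The call was lost with the replicate block (0.0891), without a filter (0.153) and when any single library was left out, with adjusted p from 0.0523 without Sox9-tg replicate 1 to 0.18 without control replicate 3. Adamts7, whose product cuts the cartilage protein COMP, had 64.6, 45.7 and 63.3 CPM in controls and 56.02, 29.7, 46.1 and 52.6 CPM with the transgene, with overlapping groups (log2 difference -0.33 with an SE of 0.2197, adjusted p = 0.386). Adamts12, its nearest relative, did not overlap between groups, at 3.43, 4.16 and 2.49 and 7.298, 6.09, 5.67 and 5.56 CPM (log2 difference 0.87 with an SE of 0.252, adjusted p = 0.0529). It passed with the replicate block (0.0331), with DESeq2 (0.0112), with limma-voom (0.0383) and without control replicate 2 (0.0328). Adamts16, Adamts18 and Adamts19 had log2 fold changes of -0.904, -0.63 and -0.79 and adjusted p of 0.315, 0.333 and 0.322.

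Of the 4 tested genes of ADAMTS-like proteins, which have no protease domain, 1 rose and 1 fell, beside 13.5% of all genes called. Adamtsl3 (ENSMUSG00000070469, chromosome 7, 82335694 to 82614450, plus strand, GRCm38), which encodes a matrix glycoprotein of the punctin type, rose from 4.71, 5.103 and 4.496 to 10.7, 17.5, 9.53 and 13.7 CPM (log2 difference 1.43 with an SE of 0.2398, adjusted p = 0.00579). Adamtsl2 (ENSMUSG00000036040, chromosome 2, 27079379 to 27108981, plus strand, GRCm38), which encodes a microfibril protein that binds a TGF-beta carrier, showed the largest fall of all members. It stood at 3.25, 8.87 and 2.91 CPM in controls and 0.893, 1.397, 0.515 and 0.683 CPM with the transgene, a 5.701-fold difference (log2 difference -2.51 with an SE of 0.501, adjusted p = 0.0123). Control library 2 held the most, and without it the log2 fold change was -1.81 (adjusted p = 0.0314). Both genes passed in each alternative setting, and neither overlapped between groups. Adamtsl4 had 1.16, 1.85 and 2.04 CPM in controls and 9.03, 2.29, 0.773 and 0.927 CPM with the transgene, so its group mean rested on Sox9-tg library 1 (log2 difference 0.94 with an SE of 0.807, adjusted p = 0.509). Without that library its log2 fold change was -0.34. Adamtsl1 had a log2 fold change of -0.36 (adjusted p = 0.472).

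**Figure D3:**
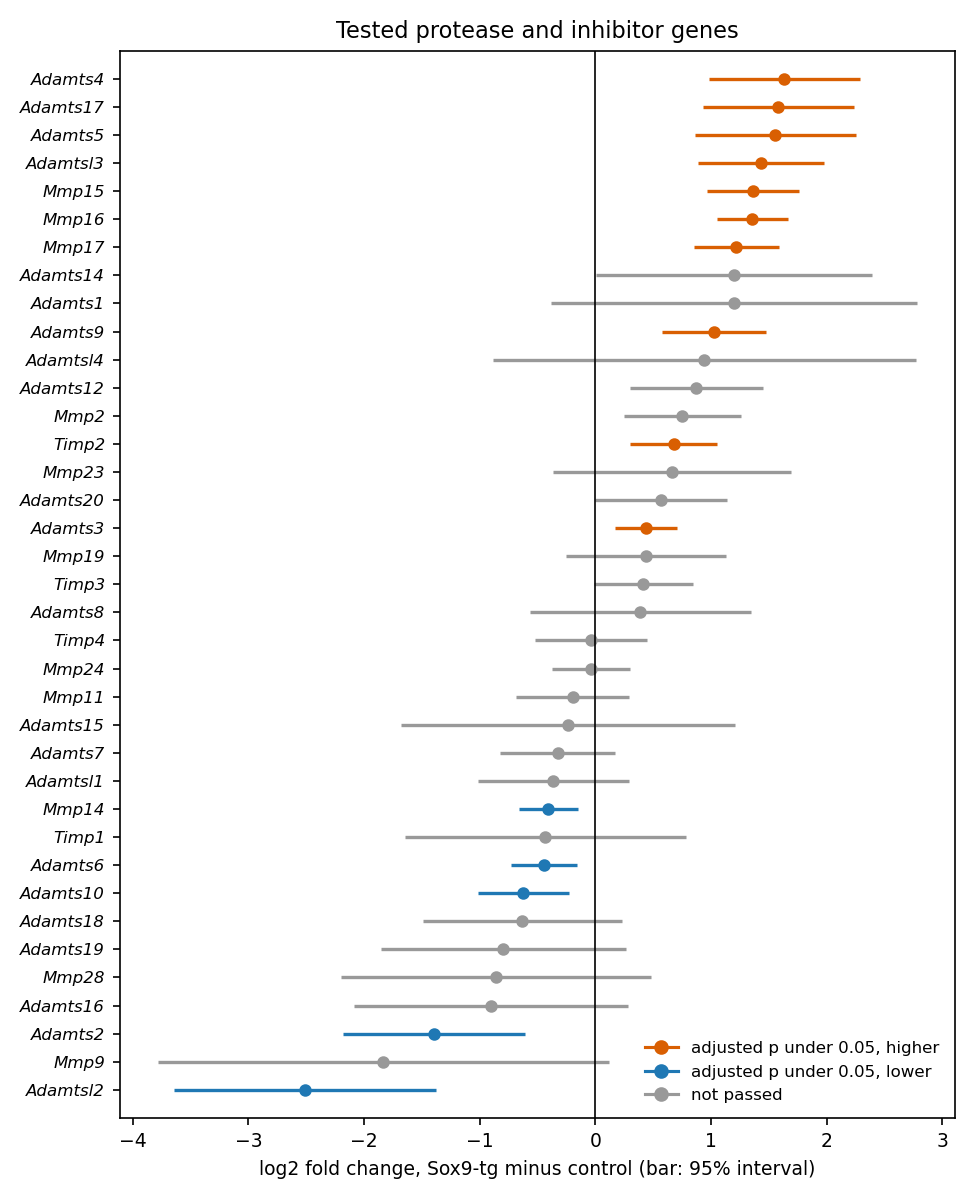
Log2 fold change (Sox9-tg minus control) of the 37 tested members, with 95% intervals from edgeR's quasi-likelihood fit. Orange genes rose and blue genes fell at an adjusted p under 0.05, and grey genes did not pass; intervals are narrow for abundant genes such as Mmp16 and Mmp14 and wide for Adamts1, Adamtsl4 and Mmp9, whose libraries differ within a group.

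Among the inhibitors, Timp2 rose and the other 3 did not pass. Timp2 (ENSMUSG00000017466, chromosome 11, 118301069 to 118355740, minus strand, GRCm38), which inhibits Mmp2 and also joins Mmp14 in its activation, stood at 85.6, 129 and 92.8 CPM in controls and 144, 188, 163 and 162 CPM with the transgene. All Sox9-tg libraries exceeded all control libraries (log2 difference 0.68 with an SE of 0.165, adjusted p = 0.0276). The adjusted p was 0.0964 and 0.131 without control replicates 1 and 3 and 0.0536, 0.0645 and 0.0627 without Sox9-tg replicates 2 to 4. Timp3, a matrix-bound inhibitor of Adamts4 and Adamts5 as well as of Mmp enzymes, had 73.99, 123 and 85.7 CPM and 103, 126, 129.6 and 144 CPM. Control library 2 overlapped the Sox9-tg range (log2 difference 0.41 with an SE of 0.188, adjusted p = 0.198), and without it Timp3 passed (log2 fold change 0.66, adjusted p = 0.0433). In Timp3, 21.3% of exonic bases are shared with Syn3 on the opposite strand.

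Timp4 had 30.2, 49.1 and 31.1 CPM in controls and 27.7, 43.8, 33.4 and 38.5 CPM with the transgene, and its log2 fold change of -0.04 had a 95% interval from -0.52 to 0.44. Timp1, the inhibitor induced in gliosis and inflammation, was scarce in every library, at 1.05, 1.27 and 1.55 CPM and 1.995, 0.848, 0.386 and 0.586 CPM (log2 difference -0.43 with an SE of 0.537, adjusted p = 0.663). Per kilobase, Timp2 had 26.3 ± 5.998 and 42.1 ± 4.56, Timp3 11.6 ± 3.11 and 15.4 ± 2.12, Timp4 6.25 ± 1.81 and 6.08 ± 1.17 and Timp1 1.45 ± 0.286 and 1.07 ± 0.8103 CPM per kb in control and Sox9-tg libraries. In Sox9-tg libraries Timp2 ranked 2 and Timp3 ranked 4 of the 51 members by mean level per kb, above every Adamts gene.

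Summed over members, the Mmp genes reached 669 ± 64.1 CPM in controls and 1170 ± 135 CPM with the transgene (SD, n = 3 and 4). The Adamts genes reached 269.995 ± 33.97 and 349 ± 49.9 CPM, and the Timp genes 235 ± 59.3 and 327 ± 35.7 CPM. The ranges of the Mmp sums were 623 to 742 and 1043 to 1328 CPM and did not overlap, and the mean of Mmp15 alone went from 298 ± 42.96 to 769 ± 122 CPM. The Adamts sums, 231 to 294 and 314 to 423 CPM, did not overlap either. Their highest value, in Sox9-tg library 2, included 149.9 CPM of Adamts1, which did not pass. The Timp sums overlapped, since control library 2 had 302 CPM and Sox9-tg library 1 had 277 CPM.

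Other genes of pericellular proteolysis were read from 6 lists, beside the 13.5% called over all genes tested. Of 9 membrane sheddase genes of the ADAM family, 7 were tested, Adam9 and Adam12 rose (log2 fold changes 0.71 and 0.84) and none fell. Of 4 proprotein convertase genes, whose products remove the inhibitory pieces of ADAMTS and membrane-anchored Mmp precursors, Pcsk5 and Pcsk6 rose and Furin and Pcsk7 did not pass. Pcsk6, which encodes an activator of aggrecanases, rose from 12.8, 21.4 and 16.8 to 36.1, 57.7, 47.3 and 51.3 CPM (log2 difference 1.496 with an SE of 0.213, adjusted p = 0.00278), with no overlap. Of 11 genes of plasminogen activation and serpins, 8 were tested, Serpinf1 and Serpini1 fell (-1.10 and -0.92) and none rose. Of 8 procollagen and HtrA protease genes, 7 were tested and the serine protease gene Htra1 alone was called, lower by a log2 fold change of -1.31. Of 7 other metalloproteinase inhibitor genes, 6 were tested, and Papln alone, which encodes an ADAMTS-related matrix protein, was called, higher by a log2 fold change of 1.58. All 9 genes of cathepsins, their inhibitor cystatin C and heparanase were tested, and 0 passed in edgeR, 0 in DESeq2, 0 in limma-voom and 0 at an unadjusted p under 0.05.

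Adam12, Pcsk6 and Acan kept their calls in each alternative setting. Leaving out control replicate 1 gave an adjusted p of 0.0673 for Adam9, 0.0579 for Papln, 0.0777 for Pcsk5 and 0.0633 for Serpini1. Leaving out control replicate 2 gave 0.0535 for Htra1, 0.101 for Serpinf1 and 0.0579 for Pcsk5. Leaving out control replicate 3 gave 0.0730 for Adam9, 0.0641 for Papln, 0.0605 for Pcsk5, 0.0537 for Serpini1, 0.136 for Serpinf1 and 0.0783 for Htra1. Serpinf1 was lost without any of Sox9-tg replicates 1 to 4 (0.0589, 0.0528, 0.104 and 0.0645). Pcsk5 and Serpini1 were lost without Sox9-tg replicates 3 (0.0851 and 0.0502) or 4 (0.0874 and 0.0541), and Htra1 without Sox9-tg replicate 3 (0.0542).

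Markers of microglia and vessels were highest in the libraries numbered 2. Adamts1, Adamts15, Adamtsl2, Mmp9, Mmp25 and Mmp28, chosen after their values were seen, were each highest in library 2 of both groups. Other members shared this order, among them Timp2 (129 and 188 CPM) and Adamtsl3 (5.10 and 17.5 CPM), which were called higher. Adamts8, Adamts18, Mmp2, Mmp19, Mmp23 and Timp4, which did not pass, shared it too. Pericyte and smooth muscle markers summed to 98.7 and 40.4 CPM in these libraries, against 26.7 to 28.3 CPM in the other control and 16.5 to 25.1 CPM in the other Sox9-tg libraries. Ependymal and choroid plexus markers summed to 111 and 73.2 CPM there, and fibroblast and meningeal markers to 52.3 and 30.7 CPM. These were the highest sums of each group. Sums for NG2 glia and myelinating oligodendrocytes were highest there as well, and those for neurons were lowest, at 1531 and 563 CPM. Adamtsl2 was lower in every Sox9-tg library than in any control library and passed without both libraries numbered 2 (log2 fold change -2.11, adjusted p = 0.0154). Without both libraries the log2 fold changes of Mmp15, Mmp16 and Mmp17 were 1.55, 1.38 and 1.45. For Adamts4, Adamts5, Adamts9 and Adamts17 they were 1.44, 1.69, 1.199 and 1.29, all past the threshold. Adamts2, Adamts3, Adamts6, Adamts10 and Mmp14 did not pass without both libraries, with adjusted p of 0.0717, 0.0864, 0.0716, 0.194 and 0.184, while Adamts12, Adamts14 and Adamts20 then passed as higher (0.0466, 0.0444 and 0.0160). The part of RNA from vascular, microglial or any other of these cell types in the values of the members highest in library 2 of both groups was not tested.

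**Figure D4:**
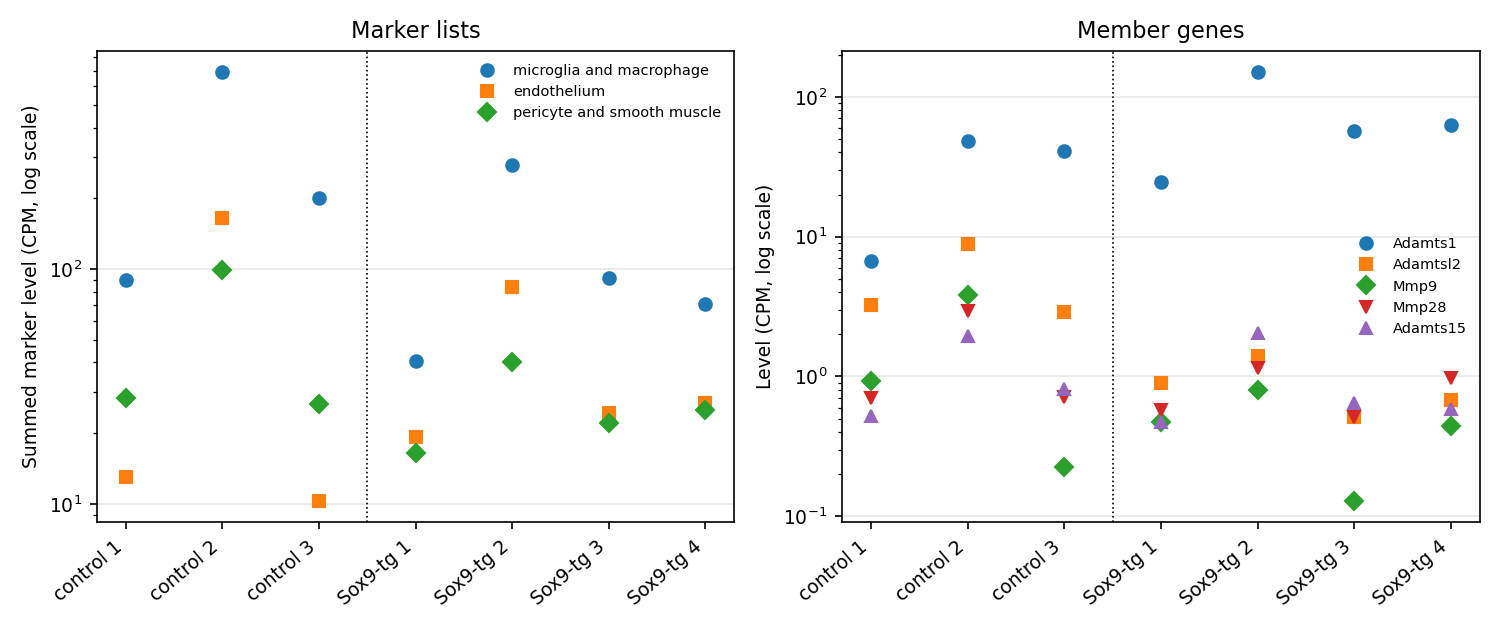
Left, summed level of microglial, endothelial and pericyte markers in each library; right, level of 5 members whose highest control library was library 2, both in CPM on a log scale. The dotted line divides control (left) from Sox9-tg libraries; control library 2 is the highest library of all for Mmp9, at 3.84 CPM, and Sox9-tg library 2 for Adamts1, at 149.9 CPM.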

How the data were processed

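RNA-seq libraries of mouse oligodendroglia, 3 control (Sox9-wt) and 4 Sox9-tg, were grouped by their labels. The authors deposited raw counts per gene, 1 table a library. The submitters' processing notes name Trimmomatic 0.36, STAR 2.5.2b, featureCounts of Subread 1.5.2, DESeq, DESeq2 and GRCm38, and nothing used here states the annotation release or whether strand was used, so reads shared with an antisense gene cannot be assigned. Here edgeR 4.0.16 (R 4.3.3) kept 16616 genes (filterByExpr, minimum count 10, total 15), scaled them by TMM and tested Sox9-tg against control with the two-sided quasi-likelihood test, with Benjamini-Hochberg adjustment over all of them. CPM use TMM-scaled library sizes, and CPM per kb divide by the union of exons in GENCODE M21 (GRCm38). The script was tested on simulated counts. DESeq2 1.42.0, limma-voom (limma 3.58.1), other scalings and filters, a replicate block and leaving out each library were alternatives, and leaving out both libraries numbered 2 was added after seeing the data.

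Named with every library's value were all called members, those whose group mean reached 10 CPM, and the Timp genes, plus some others where libraries differ, chosen after their values were seen. Members and lists were chosen with earlier results of these data known. Enzyme classes come from textbook knowledge, with results known. Libraries numbered 1, and those numbered 2, deviated together from their group means (r over genes 0.39 and 0.62). For number 3, r was 0.13, just above the range for pairs of unlike number, -0.53 to 0.12. Blocked values therefore stand beside the results whose call they change. The labels do not say what a number stands for.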

Additional observations from a re-analysis of the deposited data

Results flagged for a closer look

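One member stood apart in 1 library among the 37 tested members and the 4 Sox9-tg libraries. Adamts15, a lectican-cutting protease, reached 2.05 CPM in Sox9-tg library 2, and its gap to the nearest library was 0.891 of the group's whole range, above Dixon's 95% critical value for 4 libraries. Chance puts about 1 in 20 such groups past it. Control library 2 was also the highest of its group for this gene. The libraries numbered 2 had the highest summed levels of microglial and endothelial markers, among other lists. The part of any of these cell types in this value was not tested.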

How the results depend on the processing

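Of the 15 called members, 8 passed in each of the 16 alternatives (Adamts4, Adamts9, Adamts17, Adamtsl2, Adamtsl3, Mmp15, Mmp16 and Mmp17), and 0 changed direction. The number of higher members ranged from 7 to 12 and of lower members from 1 to 4 when 1 library was left out. Over all genes, 3.34% to 10.9% were then higher and 2.26% to 8.46% lower. Lower members numbered 3 with no filter on low counts, 2 with the replicate block and 1 without both libraries numbered 2. These were 6.82%, 5.41% and 2.78% of the members tested, beside 2.74%, 9.08% and 5.03% of all genes. The block changed no member call other than those of Mmp14, Adamts6, Adamts10, Adamts1, Adamts12 and Mmp2. Over all genes, 2251 were called, 3109 with the block, 3048 with DESeq2, and 965 to 3169 with 1 library left out (omitting control 3 gave 965, control 1 gave 1261, Sox9-tg 3 gave 1342 and Sox9-tg 4 gave 1356). For 6 members that did not pass, the log2 fold change changed sign when 1 library was left out. It ranged from -0.95 to 0.47 for Adamts15 and from -1.19 to 0.20 for Mmp28, each above 0 without control replicate 2. It ranged from -0.34 to 1.27 for Adamtsl4, below 0 without Sox9-tg replicate 1, and from -0.31 to 0.040 for Mmp11, above 0 without control replicate 1. It ranged from -0.096 to 0.085 for Mmp24 and from -0.15 to 0.23 for Timp4, and without both libraries numbered 2 it was 0.022 for Mmp24 and 0.13 for Timp4. The cause was not tested. With 3 against 4 libraries, the counts of members near 1 CPM limit their precision.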
